A study of Mus musculus with 6 samples.

Results

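The RNAs for the subunits of the respiratory chain and ATP synthase, encoded in the nuclear and the mitochondrial genome, were compared between PP2A-KO and WT bone marrow-derived macrophages (BMDM). Members were the genes whose symbol begins with Nduf followed by a, b, c, s or v, with Uqcr, with Cox followed by a digit from 4 to 8, or with Atp5, together with Sdha to Sdhd and the protein genes of the mitochondrial genome. Assembly factors and symbols marked as pseudogenes were left out. They were selected on name and on a measured value, at least 60 counts summed over the 6 libraries, and this gave 88 of the 55453 genes listed, of which 80 are nuclear and 8 mitochondrial. A further 14 symbols had the name but fewer counts.

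The study asked what loss of the catalytic subunit PP2Ac does to macrophage signaling. Of the 6 libraries, 3 came from PP2A-KO and 3 from WT BMDM of C57BL/6 mice. The PP2A-KO donors were LysM-cre PP2Ac fl/fl, a cross in which cells that express Lyz2, chiefly macrophages and granulocytes, excise the floxed exon 1 of Ppp2ca. WT mice were bought from a vendor and are not described as littermates, nor as carriers of cre or of the floxed allele. Mice of both sexes were 6 to 10 weeks old, and BMDM were grown with M-CSF or with medium from L929 fibroblasts. The labels give no treatment, whereas the study's text describes BMDM of both genotypes exposed to the STING agonist cGAMP (10 μg/mL, 4 hours) before RNA-Seq. The study's methods describe biological triplicates for its cell experiments in general, and neither they nor the labels say whether the 3 libraries of a genotype came from separate animals. P-values therefore measure the spread between these libraries.

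Complex I (NADH dehydrogenase) and complex II (succinate dehydrogenase) pass electrons to ubiquinone, complex III passes them on to cytochrome c, and complex IV reduces oxygen. Complexes I, III and IV pump protons, and complex V, the ATP synthase, uses the gradient. Complexes I, III, IV and V are built from subunits of both genomes, while complex II is nuclear alone. Mitochondrial genes are transcribed as long polycistronic RNAs that are cut at the tRNAs. In macrophages, inflammatory stimulation is known to shift metabolism from respiration towards glycolysis.

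Libraries held 35257156 to 47390899 counts. Ppp2ca had 47, 33 and 38 counts in the PP2A-KO libraries and 10654, 8913 and 8279 in WT. Summed over 8 macrophage markers, the level was 7890 to 8063 CPM (counts scaled to library size with TMM factors) in PP2A-KO and 6548 to 7245 in WT, and 3 of the 8 were higher in PP2A-KO at an adjusted p under 0.05. The 4 fibroblast markers were all lower in PP2A-KO, with sums of 22.7 to 33.4 CPM against 74.8 to 117.6 CPM, and 8 of 10 proliferation genes were lower, with sums of 283.6 to 298.6 against 360.7 to 430.7 CPM. Markers of T and NK cells (4 of 5 with no more than 3 counts in any library, all but Cd3e), B cells, neutrophils, dendritic cells and erythroid cells each summed to 1.34 CPM or less, with Ly6g, Xcr1 and Hbb-bs also at no more than 3 counts. The part of fibroblasts and of proliferation in the results was not tested, and in bulk RNA fewer cells of a type and less RNA per cell cannot be told apart.

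The respiratory chain differed little between genotypes. No member had a log2 fold change (PP2A-KO over WT) beyond 0.26 in either direction. At an adjusted p under 0.05 (edgeR's quasi-likelihood test, Benjamini-Hochberg adjustment over 13680 genes), 5 of 80 nuclear members were higher and 0 lower, against 18.1% of all genes tested that were higher and 19.0% that were lower. Of the 8 mitochondrial members, 0 were higher and 2 lower. At an unadjusted p under 0.05, 13 nuclear members were higher and 0 lower, and 0 mitochondrial members were higher and 3 lower. Of the 13680 genes tested, 3002 were higher and 3356 lower at that threshold. DESeq2 called 7 nuclear members higher and 0 lower, and 0 mitochondrial members higher and 3 lower, beside 2597 and 2280 of all genes. For limma-voom the counts were 5, 0, 0 and 2, beside 2485 and 2571 of all genes. At a stricter threshold, an adjusted p under 0.01 and a log2 fold change over 1 in either direction, 0 of the 88 members passed against 6.35% of all genes. The counts rested on single libraries. Without PP2A-KO replicate 1 the nuclear count was 11, and without replicates 2 and 3 it was 0 and 1. Without WT replicates 1, 2 and 3 it was 3, 2 and 2. The mitochondrial count of 2 became 0 without PP2A-KO replicate 2 and 1 without PP2A-KO replicate 1, WT replicate 2 or WT replicate 3. With the replicate number as a block, 28 nuclear members were higher and 0 lower, and 0 mitochondrial members were higher and 3 lower. Of all genes, 24.4% were higher and 26.4% lower with the block. The nuclear share called higher was thus below that of all genes without the block and above it with the block.

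**Figure D1:**
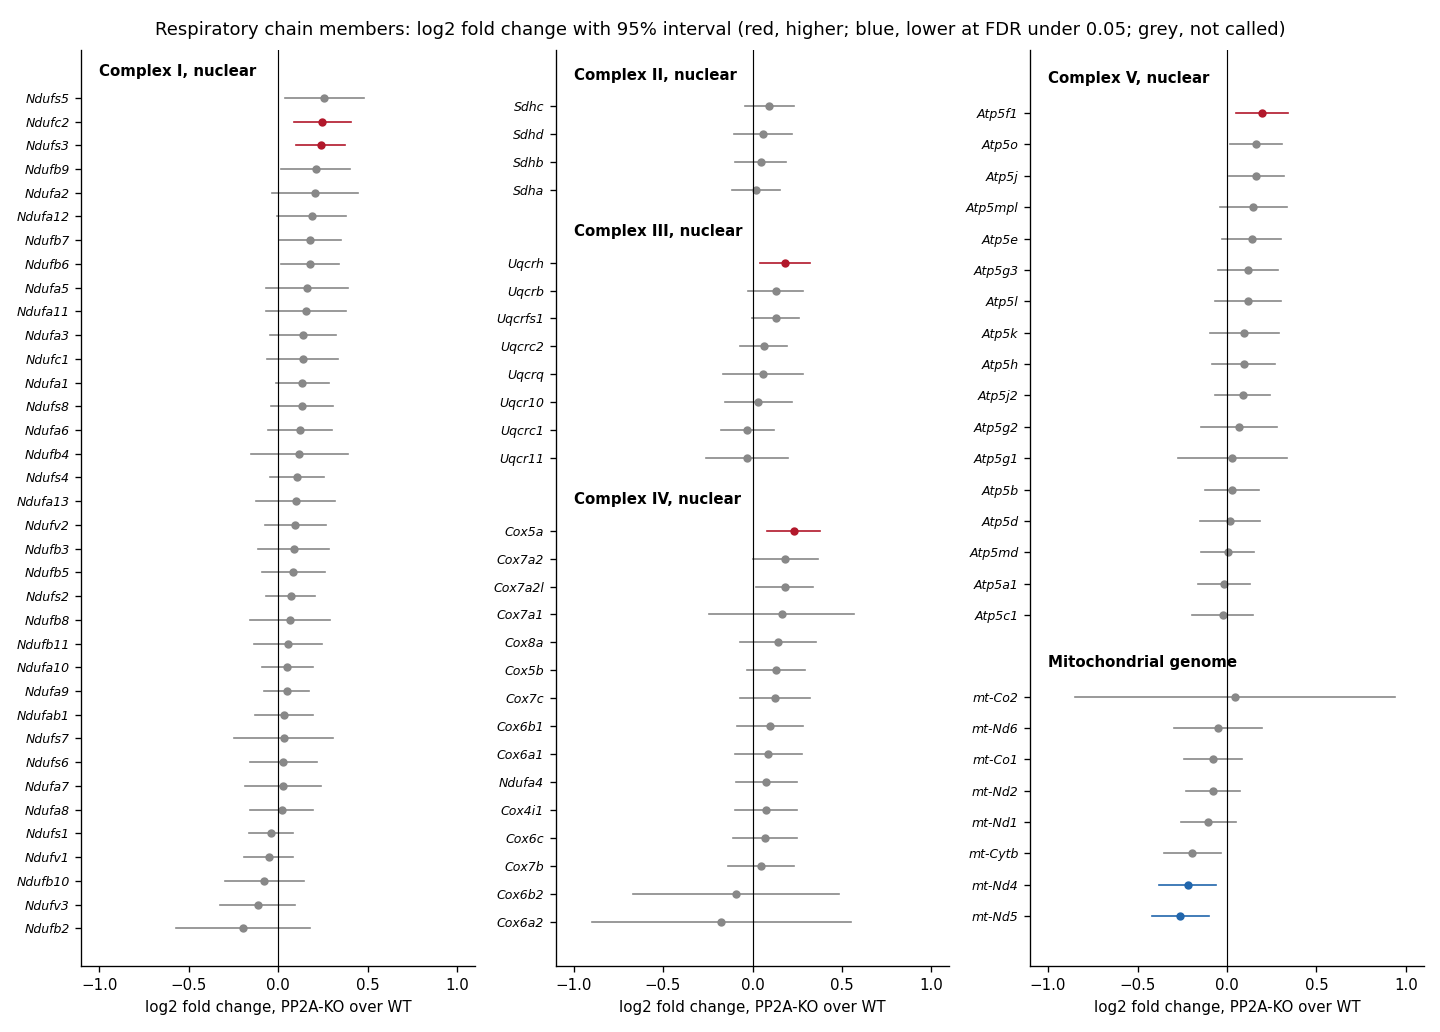
Log2 fold change (PP2A-KO over WT, x axis) of each of the 88 members with its 95% interval from edgeR, sorted within each complex. Red points are higher and blue points lower at an adjusted p under 0.05, and grey points did not pass. Nuclear points lie mostly right of 0 (69 of 80) and mitochondrial points left of it (7 of 8), none beyond 0.26.

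The estimates were precise enough to bound the difference. For 76 of the 80 nuclear members the 95% interval of the log2 fold change lay within 0.5 of 0, and for 7 of the 8 mitochondrial members, against 49.1% of all genes tested. The 5 members with wider intervals, Ndufb2, Cox6a2, Cox6b2, Cox7a1 and mt-Co2, were among those with the fewest counts. The median log2 fold change was 0.09 over the nuclear and -0.09 over the mitochondrial members, beside -0.02 over all genes tested. Log2 fold changes were above 0 for 69 of the 80 nuclear and 1 of the 8 mitochondrial members.

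The sign of the nuclear median depended on the scaling, and its distance from the median of all genes varied little with it. With library totals alone the median of all genes was -0.24 and that of the nuclear members -0.12, and with upper-quartile scaling they were -0.09 and 0.03. In each of these fits, as with TMM and with RLE scaling, the nuclear median lay 0.11 to 0.12 above that of all genes, and the mitochondrial median at -0.07 from it. With 1 library left out the nuclear distance ran from 0.08 to 0.17. The mitochondrial distance was -0.04 without PP2A-KO replicate 2, -0.12 without PP2A-KO replicate 1 and -0.10 without PP2A-KO replicate 3. With upper-quartile scaling and with library totals alone 0 of the 5 nuclear calls passed (edgeR), and with library totals their log2 fold changes ran from -0.03 to 0.03. In a fit from which trends with GC content and transcript length were removed the nuclear distance was 0.04 (median 0.00) and the mitochondrial one -0.20 (median -0.23).

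**Figure D2:**
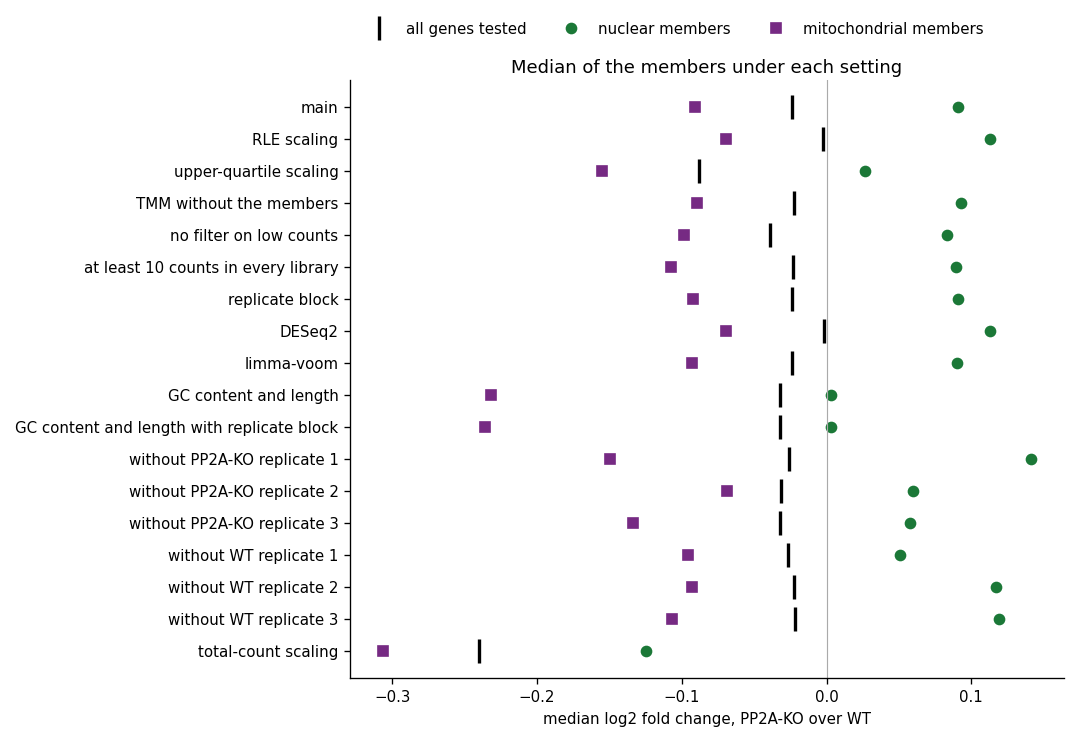
Median log2 fold change (x axis) of the nuclear members (green circles), the mitochondrial members (purple squares) and all genes tested (black bars) under each setting (y axis). The 3 medians move together under other scalings, and the nuclear median is near that of all genes in the GC and length fits.

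Summed CPM, in which the abundant members weigh most, gave 4647, 5145 and 5166 for the nuclear members in PP2A-KO replicates 1 to 3, and 4483, 4858 and 4853 in WT. The groups overlapped, and replicate 1 was the lowest of both genotypes. For the mitochondrial members the sums were 11291, 10873 and 11808 CPM in PP2A-KO and 12660, 12195 and 12398 in WT. Each PP2A-KO library lay below each WT library. The ratio of mitochondrial to nuclear member counts within a library needs no scaling, and was 2.43, 2.11 and 2.29 in PP2A-KO and 2.82, 2.51 and 2.55 in WT, with no overlap. Of all counts in a library, 1.02% to 1.11% fell on the mitochondrial members in PP2A-KO and 1.33% to 1.36% in WT. The nuclear members held 0.423% to 0.484% in PP2A-KO and 0.470% to 0.532% in WT, with overlap. Such shares rest on library totals alone, with which the 13680 tested genes had a median of -0.24. A lower share in PP2A-KO is thus not by itself particular to the mitochondrial members.

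Complex I had 36 nuclear members, of which 2 were higher, 0 lower and 34 not called (median log2 fold change 0.10). Ndufc2, an accessory subunit of the membrane arm (ENSMUSG00000030647.8, chr7:97400003-97407802, forward strand, GRCm38), had 28.1, 29.4 and 30.8 CPM in PP2A-KO and 23.2, 24.7 and 26.5 CPM in WT. All 3 PP2A-KO libraries were above the WT libraries (log2 fold change 0.25, SE 0.0712, adjusted p = 0.0226 from edgeR), and the call was lost once GC content and length were removed (log2 fold change 0.12, adjusted p = 0.111 from edgeR). Ndufs3, a core subunit of the arm that reaches into the matrix (ENSMUSG00000005510.9, chr2:90894634-90904827, reverse strand), had 44.8, 49.5 and 48.1 CPM in PP2A-KO and 39.4, 41.3 and 40.0 CPM in WT. It too was without overlap (log2 fold change 0.24, SE 0.0609, adjusted p = 0.0133 from edgeR). The largest nuclear log2 fold change was that of Ndufs5, an accessory subunit, at 0.26 (SE 0.0973), with 18.0, 20.3 and 22 CPM against 15, 17.6 and 17.9 CPM, and it did not pass (adjusted p = 0.0634 from edgeR, or 0.00244 once blocked). It is named here after its values were seen. With the block 14 of the 36 nuclear subunits of complex I were called higher, beside 24.4% of all genes tested.

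Ndufb2, an accessory subunit of the membrane arm, had the most negative nuclear estimate at -0.20 (SE 0.166, adjusted p = 0.385 from edgeR), on 60 to 109 counts per library, and was named after its values were seen. Per kilobase of transcript it had 4.01 CPM in PP2A-KO and 4.61 in WT, among the lowest levels of complex I. Exons of Gm42420 on the same strand cover 31.9% of its transcript and exons of Gm16272 on the opposite strand 18.5%. Whether this overlap bears on its counts was not tested. Exons of another gene on the same strand also cover 28.6% of Ndufb9 and 19.7% of Ndufb8. Those had 17.5 and 30.5 CPM per kilobase in WT.

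Complex II, encoded in the nucleus alone, held the members with some of the narrowest intervals. Sdha, the flavoprotein that oxidizes succinate, had 217, 224 and 224 CPM in PP2A-KO and 224, 215 and 215 CPM in WT. The groups overlapped, and the log2 fold change was 0.02 (95% interval -0.11 to 0.16, adjusted p = 0.802 from edgeR). Sdhb, the iron-sulfur subunit, had a log2 fold change of 0.05 (interval -0.10 to 0.19). For the membrane anchors it was 0.09 for Sdhc (interval -0.04 to 0.23) and 0.06 for Sdhd (interval -0.11 to 0.22). Adjusted p-values of the 4 genes ran from 0.251 to 0.802 (edgeR), and with upper-quartile scaling the estimates of Sdha, Sdhb and Sdhd, and with library totals alone those of all 4, were below 0.

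Complex III had 8 nuclear members, of which 1 was higher and 7 were not called (median log2 fold change 0.06). Uqcrh, the hinge protein that lies beside cytochrome c1 (ENSMUSG00000063882.12, chr4:116066965-116075071, reverse strand), had 65.3, 72.7 and 71.4 CPM in PP2A-KO and 60.4, 63.1 and 60.9 CPM in WT. The groups did not overlap (log2 fold change 0.18, SE 0.0616, adjusted p = 0.0431 from edgeR), but the log2 fold change was 0.02 (adjusted p = 0.745 from edgeR) once GC content and length were removed and -0.03 without scaling factors. Uqcrfs1, the Rieske iron-sulfur protein, was at 0.13 (SE 0.0574, adjusted p = 0.11 from edgeR, or 0.0224 once blocked). With the block 3 of the 8 were called higher, beside 24.4% of all genes tested.

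Complex IV had 15 nuclear members, Ndufa4 among them, since its protein is now counted with cytochrome c oxidase. Of these, 1 was higher and 14 were not called (median log2 fold change 0.10). Cox5a, a nuclear subunit that faces the matrix (ENSMUSG00000000088.7, chr9:57521274-57532426, forward strand), had 78.2, 88.8 and 84.3 CPM in PP2A-KO and 70.8, 74.1 and 69.4 CPM in WT. No PP2A-KO library fell within the WT range (log2 fold change 0.23, SE 0.0655, adjusted p = 0.0218 from edgeR). The call was lost once GC content and length were removed (log2 fold change 0.09, adjusted p = 0.165 from edgeR). Exons of Gm26631 on the opposite strand cover 41.7% of the Cox5a transcript. Whether they bear on its counts was not tested, and the strand setting of the counting is not stated. Where a subunit has isoforms, the widely expressed one was measured and the tissue-restricted one was low. Cox4i1 had 284.2 ± 14.8 CPM in PP2A-KO and 269.9 ± 20.04 CPM in WT (SD, n = 3; log2 fold change 0.07, adjusted p = 0.483 from edgeR), while Cox4i2 had 13 counts over all 6 libraries. Cox6a2, the heart and muscle form, had 83 counts in all, just inside the minimum, against 23297 for Cox6a1. Cox7b2, Cox8b and Cox8c had 0 counts in each library, which allows up to 0.0909 CPM in the shallowest, for counting error only.

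Complex V had 17 members, of which 1 was higher and 16 were not called (median log2 fold change 0.09). Atp5f1, which here names the peripheral stalk subunit b (ENSMUSG00000000563.17, chr3:105942698-105960099, reverse strand), had 107, 118 and 117 CPM in PP2A-KO and 103, 101 and 95.8 CPM in WT. The groups did not overlap (log2 fold change 0.19, SE 0.0645, adjusted p = 0.0403 from edgeR). Without scaling factors its log2 fold change was -0.02, and 2.96% of the windows of 150 bases in its transcript also occur in Wdr77. Over the 5 subunits of the catalytic F1 head the median log2 fold change was 0.01, and over the other 12 it was 0.11. Atp5b, the catalytic beta subunit, had 348, 381 and 379 CPM in PP2A-KO and 352, 362 and 374 CPM in WT, with overlap (log2 fold change 0.03, SE 0.0670, adjusted p = 0.787 from edgeR).

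**Figure D3:**
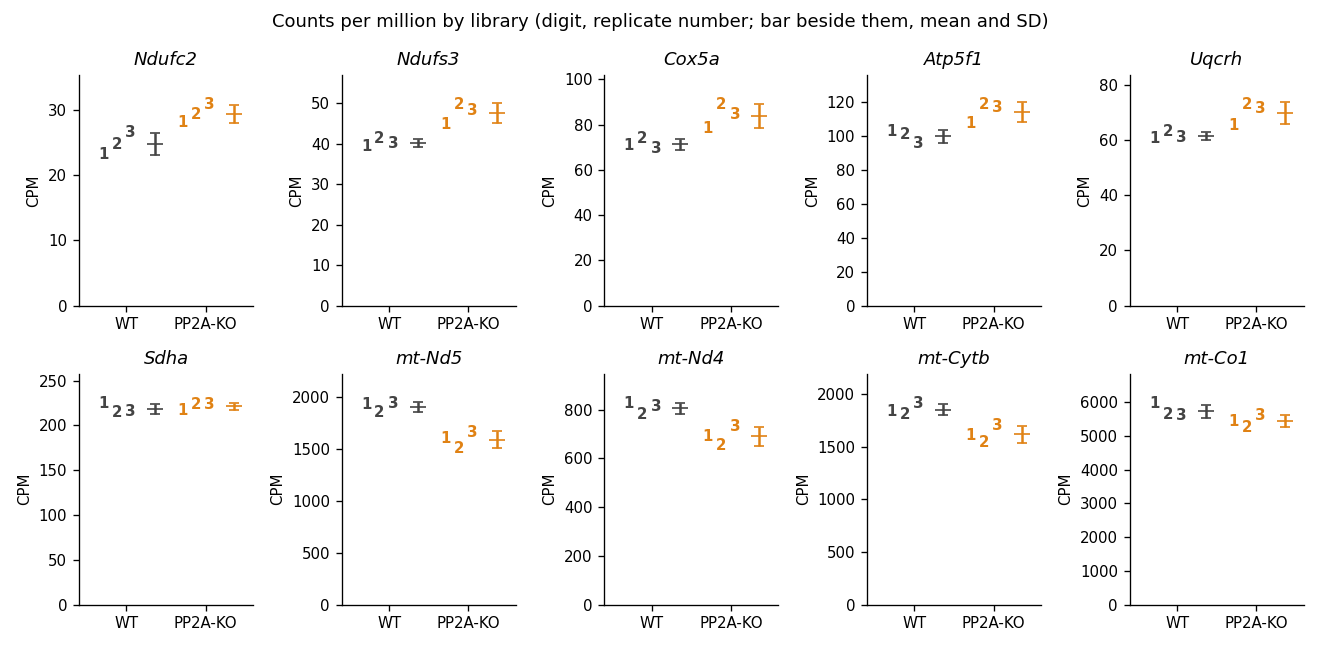
CPM (y axis, from 0) of 10 members in each library. Digits are replicate numbers, and the bar beside them gives the mean and SD of the 3 libraries. The groups do not overlap for the 5 nuclear members that passed (top row) nor for mt-Nd5, mt-Nd4 and mt-Cytb, while Sdha and mt-Co1 overlap.

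The groups did not overlap for 15 nuclear members, all with PP2A-KO higher, and for 4 mitochondrial members, all with PP2A-KO lower, where 24.0% of all genes were higher and 26.8% lower without overlap. Over the 17 nuclear members of the catalytic core the median log2 fold change was 0.05, with 1 called higher, and over the 63 others it was 0.10, with 4 called higher. The median transcript length was 1363 bases for the core and 680 for the others. Among 75 nuclear members with a mean of at least 10 CPM and a known transcript length, Spearman's rho between log2 fold change and length was -0.355. These points share their libraries, and the rho over 13608 tested genes was -0.105. The 46 members with transcripts under 1000 bases had a median of 0.12, and the 451 tested genes of that length and level one of 0.14. For the 29 longer members it was 0.06, and for the 7551 longer genes 0.02. Once the trends with GC content and length were removed, the rho over the 75 was 0.457, so that the relation with length changed sign among the members. The 46 shorter members then had a median of -0.03 and all genes of that length 0.04. For the longer members it was 0.03 and for the longer genes 0.02. In that fit 2 nuclear members were called higher, Ndufs3 and Atp5f1, and 1 lower, Uqcr11.

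The mitochondrial genome has 13 protein genes, and 8 had enough counts to be members. mt-Nd5, a proton-pumping subunit of complex I (chrM:11742-13565), had 1600, 1502 and 1657 CPM in PP2A-KO and 1927, 1846 and 1931 CPM in WT. All PP2A-KO libraries were below all WT libraries (log2 fold change -0.26, SE 0.0703, adjusted p = 0.0169 from edgeR). mt-Nd4, another pumping subunit (chrM:10167-11544), had 689, 653 and 731 CPM in PP2A-KO and 824, 779 and 812 CPM in WT, again without overlap (log2 fold change -0.22, SE 0.0699, adjusted p = 0.0344 from edgeR). mt-Cytb, the cytochrome b of complex III (chrM:14145-15288), had 1610, 1545 and 1706 CPM against 1842, 1812 and 1911 CPM. Its groups did not overlap either, but its log2 fold change of -0.19 (SE 0.0706) did not pass (adjusted p = 0.0563 from edgeR, or 0.00182 once blocked).

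The 3 genes nearer the start of the heavy-strand transcript had smaller estimates. They were -0.10 for mt-Nd1 (SE 0.0681), -0.08 for mt-Nd2 (SE 0.0668) and -0.08 for mt-Co1 (SE 0.0722), the oxygen-reducing subunit of complex IV, with adjusted p-values from 0.267 to 0.438 (edgeR). mt-Co1 had 5440, 5253 and 5616 CPM in PP2A-KO and 5957, 5633 and 5614 CPM in WT, with overlap. mt-Nd6, the 1 member on the light strand, had 58.8, 42.7 and 50.1 CPM in PP2A-KO and 56.6, 49.2 and 51.1 CPM in WT (log2 fold change -0.05, SE 0.109, adjusted p = 0.761 from edgeR).

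Counts taken as a percentage of mt-Co1 in the same library need no scaling. mt-Nd5 stood at 29.4%, 28.6% and 29.5% of mt-Co1 in PP2A-KO and at 32.4%, 32.8% and 34.4% in WT. mt-Nd4 stood at 12.7%, 12.4% and 13.0% against 13.8%, 13.8% and 14.5%. Neither overlapped between groups. mt-Nd1 was at 21.3 ± 0.634% in PP2A-KO and 21.7 ± 0.882% in WT (SD, n = 3), and mt-Nd2 at 14.4 ± 0.256% and 14.4 ± 0.557%. These percentages are a description, since the smallest p that an exact permutation test allows for 3 against 3 is 0.1.

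The 2 ribosomal RNAs at the start of the same strand lay on the other side of 0. mt-Rnr1, the small-subunit rRNA, had 298, 283 and 371 CPM in PP2A-KO and 244, 228 and 226 CPM in WT, with no overlap (log2 fold change 0.45, SE 0.101, adjusted p = 0.00735 from edgeR). mt-Rnr2, the large-subunit rRNA, had a log2 fold change of 0.28 (SE 0.10, adjusted p = 0.0521 from edgeR, or 0.00749 once blocked). Together they amounted to 10.2%, 10.4% and 12.2% of the mitochondrial member counts in PP2A-KO and to 8.32%, 7.81% and 7.78% in WT. Poly(A) selection preceded library preparation, and how much of this rRNA it removed was not measured. Of the 22 mitochondrial tRNAs, 3 were tested and 0 called in either direction by edgeR (0 at an unadjusted p under 0.05).

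**Figure D4:**
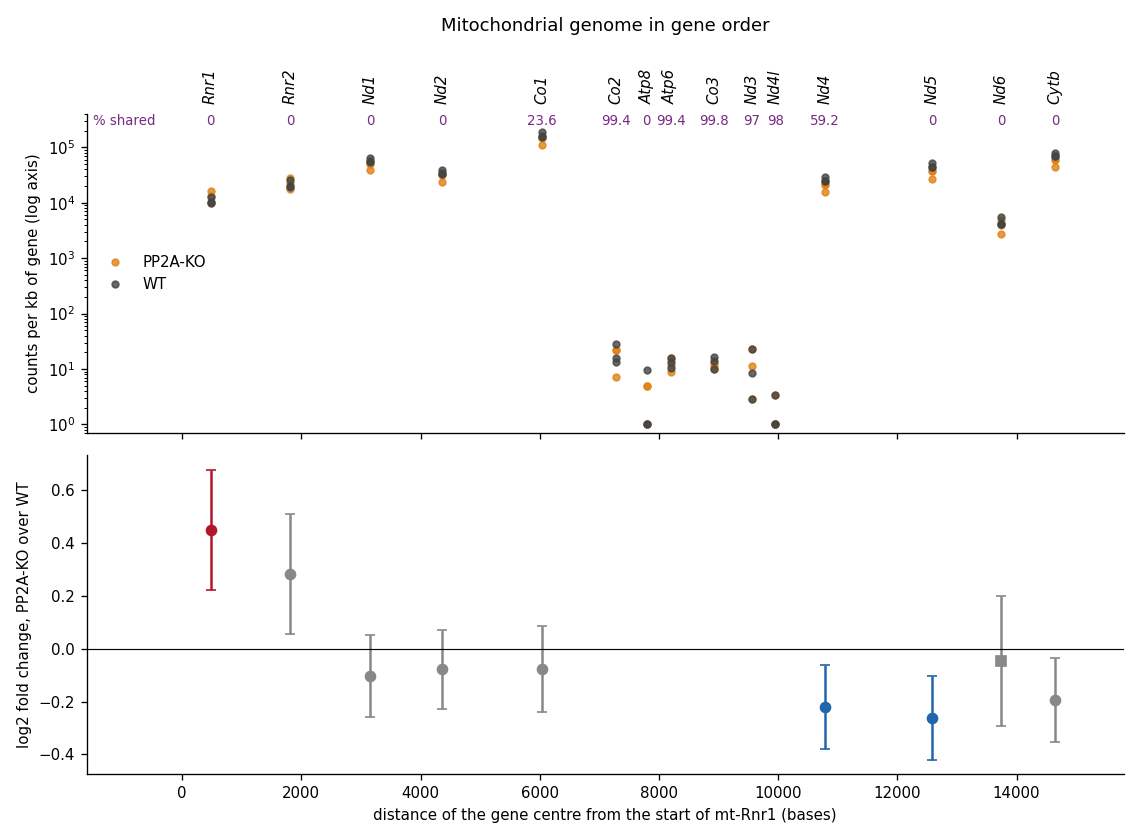
Mitochondrial genes by the distance of their centre from the start of mt-Rnr1 (x axis, bases). Top, counts per kilobase in each library on a log axis (counts of 0 drawn at 1), with the percentage of windows of 150 bases that also occur in another gene in purple. Bottom, log2 fold change with its 95% interval (red, higher and blue, lower at an adjusted p under 0.05; grey, not called; square, light strand) for genes with an SE of 0.2 or less. The rRNAs lie above 0, mt-Nd4 and mt-Nd5 below it, and the stretch from mt-Co2 to mt-Nd4l has few counts.

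From mt-Co2 to mt-Nd4l, 6 adjacent genes had almost no counts, although the genes on either side are among the members with the most counts. mt-Co2, a copper-bearing subunit of complex IV, had 15, 5 and 15 counts in PP2A-KO and 19, 11 and 9 in WT (log2 fold change 0.04, SE 0.396, adjusted p = 0.941 from edgeR), beside 173400 to 295952 counts per library on mt-Co1. With 74 counts in all it was just inside the minimum of 60. Just outside it lay mt-Co3 with 59 and mt-Atp6 with 52, and next among the nuclear genes Ndufa4l2 with 43. mt-Nd3 had 25, mt-Atp8 4 and mt-Nd4l 2. The direction of mt-Co2 changed between settings.

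Several mitochondrial genes have near copies in the nuclear genome. Of all windows of 150 bases, the read length, 99.4% of those of mt-Co2 also occur in another annotated gene, and likewise 99.4% of mt-Atp6, 99.8% of mt-Co3, 97.0% of mt-Nd3, 98.0% of mt-Nd4l, 59.2% of mt-Nd4 and 23.6% of mt-Co1. For mt-Cytb, mt-Nd1, mt-Nd2, mt-Nd5 and mt-Nd6 no window did, and for mt-Atp8, also low, none did either. Only annotated transcripts were searched, so that a copy outside them would not be found. The copies of the first group are pseudogenes in a single stretch of chromosome 1 on the reverse strand. They had few counts themselves, 17 to 31 per library for Gm28661, the copy of mt-Co2. To show the copies beside the gene, the same 120 bases are printed from mt-Co2 (chrM:7313-7432, forward strand), from Gm28661 (chr1:24615146-24615265, reverse strand) and from a further copy, Gm13341 (chr2:22587543-22587662, reverse strand), all GRCm38 and GENCODE M21, with capitals for a base that differs from mt-Co2.
mt-Co2: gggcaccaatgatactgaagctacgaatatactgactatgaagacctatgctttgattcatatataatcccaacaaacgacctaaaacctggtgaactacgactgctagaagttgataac
Gm28661: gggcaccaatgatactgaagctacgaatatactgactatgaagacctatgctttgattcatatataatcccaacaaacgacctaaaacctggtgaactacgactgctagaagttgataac
Gm13341: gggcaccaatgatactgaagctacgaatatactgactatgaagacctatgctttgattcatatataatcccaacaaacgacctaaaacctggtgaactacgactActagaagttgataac

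Gm28661 and mt-Co2 were identical over all 681 bases that align. Gm13341 differed at 1 base in the printed stretch but, aligned without gaps, at 173 of 672 bases over its whole length (74.3% identity), and it holds 4.49% of the windows of mt-Co2. The sources used here do not state how reads with several places in the genome were counted. How that bears on these genes was not tested. Atp5g2, a nuclear subunit c gene, had 49.3 ± 5.75 CPM in WT (SD, n = 3), and 100% of its windows also occur in pseudogenes. The other nuclear members that share 20% or more of their windows were Atp5l (44.6%), Ndufb4 (29.3%), Cox7c (24.6%), Ndufb6 (21.2%), Ndufa13 (20.5%) and Uqcrc2 (20.5%). For Atp5l, Ndufb4 and Cox7c the windows recur in pseudogenes elsewhere in the genome. For Ndufb6, Ndufa13 and Uqcrc2 they lie in a gene that overlaps on the opposite strand (Smim27, Tssk6 and Pdzd9). How far either bears on their counts was not tested.

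Per kilobase of the main transcript, the WT means ordered as mt-Co1 (3712 CPM per kb), mt-Cytb (1622), mt-Nd1 (1299), mt-Nd5 (1042), mt-Nd2 (794.8) and mt-Nd4 (584.4), followed by Cox4i1 (362.3) as the first nuclear gene and Atp5b (189.3). mt-Nd6, on the light strand, stood at 100.8 CPM per kb, within the nuclear range. The lowest nuclear members were Cox6a2 (0.513) and Cox6b2 (0.932), and mt-Co2 stood at 0.414. These levels use the whole length, although 59.2% of the windows of mt-Nd4, 23.6% of mt-Co1 and 99.4% of mt-Co2 also occur in other genes. How reads from such windows were counted is not stated, so the places of mt-Nd4, mt-Co1 and mt-Co2 in this order are uncertain.

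Promoter windows of 250 bases before to 50 after the transcript start were at hand for 66 of the 80 nuclear members (RefSeq, GRCm38.p6), 1 window per gene. They were searched on both strands for exact matches to the core motifs of 4 factors known to bind respiratory gene promoters. The NRF1 letters GCATGCGC, which overlap their own reverse complement, occurred in 10 of the 66 (15.2%) and in 2.82% of all 27025 promoter windows. For the YY1 letters AAGATGGCG it was 6 (9.09%, against 1.53% of all), for the ETS letters CCGGAAGT, which GABPA binds, 5 (7.58%, against 4.04%), and for the ERRalpha letters TCAAGGTCA 2 (3.03%, against 0.385%). Members with the NRF1 letters had a median log2 fold change of 0.08 and those without 0.10. With and without the letters it was 0.07 and 0.10 for YY1, 0.14 and 0.09 for ETS, and 0.09 and 0.10 for ERRalpha. Uqcr11, which also has the ETS letters, was at -0.03. To show what these promoters share, 30 bases around the match are printed for 5 of the 10 with the NRF1 letters, and for the 2 called members with the ETS letters, with the matched letters in capitals. The regions are, in order, chr15:102671070-102671099 (reverse), chr5:108434430-108434459 (reverse), chr5:115349101-115349130 (reverse), chr4:140961206-140961235 (forward), chr9:108936668-108936697 (forward), chr4:116075063-116075092 (reverse) and chr2:90904703-90904732 (reverse).
Atp5g2, NRF1: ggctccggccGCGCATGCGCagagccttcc
Atp5k, NRF1: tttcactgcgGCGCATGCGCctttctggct
Cox6a1, NRF1: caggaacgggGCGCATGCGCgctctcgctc
Sdhb, NRF1: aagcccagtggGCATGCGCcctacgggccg
Uqcrc1, NRF1: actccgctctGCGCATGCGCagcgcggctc
Uqcrh, ETS: gagtatgccgcACTTCCGGccaggtcgccg
Ndufs3, ETS: tgcacatttccACTTCCGGtccgtgccctt

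A match is a description of letters, and binding was not measured. Of the regulators of respiratory genes, 11 were tested, with 3 higher and 2 lower in PP2A-KO. Of all genes tested, 18.1% were higher and 19.0% lower. Hif1a, the oxygen-regulated factor that favours glycolysis, had 285, 253 and 226 CPM in PP2A-KO and 205, 167 and 153 CPM in WT (log2 fold change 0.54, SE 0.120, adjusted p = 0.00660 from edgeR). Gabpb1, the partner of GABPA, was higher (log2 fold change 0.33, SE 0.0673), and Pprc1, a coactivator of the PGC-1 family, was lower (-0.26, SE 0.0841). Nrf1 itself was at 0.08 (SE 0.0881, adjusted p = 0.540 from edgeR).

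Genes around the respiratory chain were counted on separate lists, here and below. Over all genes tested, 18.1% were higher and 19.0% lower, and with the block 24.4% and 26.4%. Of 15 genes for electron carriers and ubiquinone synthesis, 3 were higher and 1 lower. Cycs, the mobile carrier cytochrome c, had 52.4, 50.5 and 44.1 CPM in PP2A-KO and 32.7, 27.2 and 24.6 CPM in WT. All PP2A-KO libraries were above WT, a 1.74-fold difference (log2 fold change 0.80, SE 0.108, adjusted p = 0.000556 from edgeR), whereas Cyc1, which holds the neighbouring heme of complex III, was at 0.02 (SE 0.0725, adjusted p = 0.826 from edgeR). Pdss1 and Coq2, which make and attach the ubiquinone tail, were higher, by 0.67 (SE 0.157) and 0.64 (SE 0.0792). Of 52 assembly factors 7 were higher and 6 lower, and with the block 14 and 7. Coa5 (0.61, SE 0.0676) and Sco1, a copper chaperone of complex IV (0.69, SE 0.0919), were higher, and Lyrm7, a chaperone of the Rieske protein, was lower (-0.89, SE 0.279, on 132 counts in all). The medians of these lists were -0.02 and 0.00.

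Of 32 genes for maintenance, transcription and processing of mitochondrial DNA and RNA, 4 were higher and 4 lower (median -0.05). Slirp, which with LRPPRC stabilizes mitochondrial mRNAs, had 31.6, 34.3 and 35 CPM in PP2A-KO and 21.8, 22.2 and 21 CPM in WT, with no overlap (log2 fold change 0.63, SE 0.0652, adjusted p = 0.000160 from edgeR). Pnpt1, the mitochondrial polynucleotide phosphorylase, was higher (0.69, SE 0.106), and Twnk, the replicative helicase, was lower (-0.68, SE 0.153). Of 77 mitochondrial ribosomal proteins, 8 were higher and 4 lower (median -0.02), with Mrpl39 at 0.54 (SE 0.0694), Mrpl41 at -0.47 (SE 0.121) and Mrps27 at -0.40 (SE 0.0906). With the block the counts were 5 and 10 for the DNA and RNA list and 10 and 13 for the ribosomal proteins.

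Of 29 import factors and chaperones, 2 were higher and 2 lower (median -0.07), and with the block 4 and 5. Tomm70a, a receptor of the outer membrane, was at 0.60 (SE 0.109), Hspa9, the matrix Hsp70, at -0.25 (SE 0.0678), and Pmpcb, of the processing peptidase, at 0.20 (SE 0.0551). The 10 translation factors had a median of -0.15 and the 7 ATP, phosphate and anion carriers one of -0.03. Of both lists, 0 genes were called higher or lower by edgeR, by DESeq2 or by limma-voom, 2 were below 0 at an unadjusted p under 0.05, and 3 were lower with the block.

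Among 18 tested genes of the isoform list, 1 was called higher and 0 lower, and with the block 7 were higher and 0 lower. AA467197, a paralog of Ndufa4 that lies outside the name rule, had 199, 168 and 113 counts in PP2A-KO and 77, 42 and 30 in WT, a 3.79-fold difference (log2 fold change 1.92, SE 0.307, adjusted p = 0.00126 from edgeR). Its PP2A-KO range lay above its WT range. The transcript also contains Mir147, over 9.97% of its length. Ndufa4, the subunit of complex IV, was at 0.08 (SE 0.0770, adjusted p = 0.461 from edgeR), and Ndufa4l2, its other paralog, had 3 to 4 counts per PP2A-KO library and 9 to 12 per WT library, too few to be tested.

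**Figure D5:**
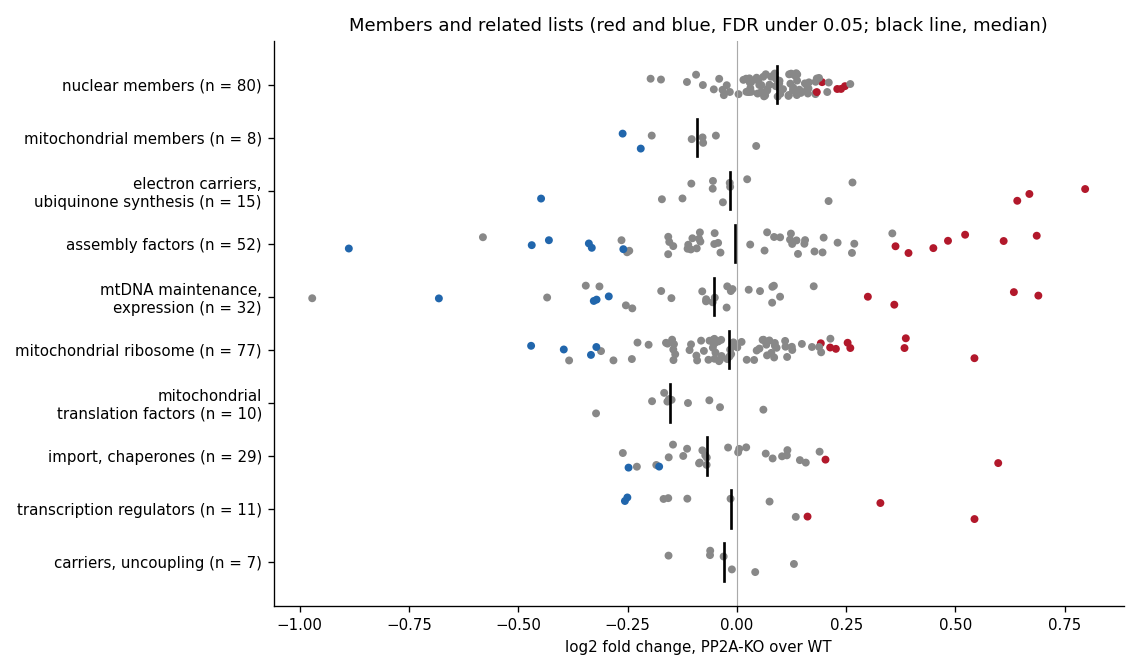
Log2 fold change (PP2A-KO over WT, x axis) of each tested gene of the members and 8 related lists (y axis). Red and blue points are higher and lower at an adjusted p under 0.05, grey points did not pass, and black lines mark medians. The members stay within 0.26 of 0, while assembly factors reach -0.89 (Lyrm7, which had few counts) and cytochrome c 0.80.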

How the data were processed

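Total RNA of 6 BMDM libraries (3 per genotype) was poly(A)-selected and sequenced with a directional kit as paired reads of 150 bases. The authors deposited whole-number read counts per gene, without normalization. The submitters' processing notes list fastp 0.20.0, kallisto 0.46.1, STAR 2.7.1a, HTSeq 0.11.2, edgeR 3.34.0, limma 3.48.3 and the builds mm10 and GRCm38. The handling of multi-mapped reads and the strand setting are not given in the sources used here. Library totals were 35257156 to 47390899, and 3 counts equal 0.0604 to 0.0909 CPM.

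Counts were fitted in R 4.3.3 with edgeR 4.0.16 (TMM, filterByExpr at count 10 and total 15, glmQLFit and glmQLFTest for genotype), adjusted by Benjamini-Hochberg over 13680 genes, with calls under 0.05. CPM use TMM factors. Alternatives were RLE and upper-quartile scaling, TMM factors computed without the members, no filter, the replicate block, 10 counts or more required in all libraries, DESeq2 1.42.0, limma-voom (limma 3.58.1), loess removal of GC content and length (span 0.3), each library left out, and, chosen after seeing the data, library totals alone. Same-numbered libraries deviated together from their group means (correlations 0.266, 0.133 and 0.322 across 13680 genes). Other matchings of libraries were not compared, and the labels do not say that the numbers pair the samples. The main fit used genotype only, and the replicate number as a block was an alternative. No pair of libraries agreed within counting noise. Lengths and windows come from the main transcript in GENCODE M21, in which Atp5md was not matched. The fit was also run on simulated counts with independent libraries and the same dispersion for each gene. Those counts lacked the correlation of same-numbered libraries and the trends with length, so the simulation cannot speak to either.

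The members and gene lists were chosen with earlier results of these data known. Genes were named by a rule: every mitochondrial member, up to 10 nuclear members called in each direction, complex II, examples of isoforms and of the core, and up to 3 genes per other list. Beyond it, Ndufs5, Ndufb2, Uqcr11, Uqcrfs1, Nrf1, Cyc1 and mt-Rnr2 were named after their values were seen.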

Additional observations from a re-analysis of the deposited data

How the results depend on the processing

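The nuclear differences were small beside the choice of scaling, and none of the 7 calls of members held under every setting. The call of mt-Nd5 passed under each scaling. It was lost only without PP2A-KO replicate 2 (log2 fold change -0.22, adjusted p = 0.0897 from edgeR). The count of nuclear members called higher, 5 as reported, was 28 with the replicate block, 10 with RLE scaling, 0 with upper-quartile scaling, 0 with library totals alone, 2 with GC content and length removed, 8 with that removal and the block, and 0 to 11 with 1 library left out. The count called lower, 0 as reported, was 1 and 9 in those 2 GC and length fits and 10 with library totals alone. The median log2 fold change of the nuclear members was -0.12 with library totals alone and 0.05 to 0.14 with 1 library left out, and the log2 ratio of their summed CPM, 0.08 as reported, was -0.14 with library totals alone. The count of mitochondrial members called lower, 2 as reported, was 3 with the replicate block, 1 with RLE scaling, 5 and 7 in the GC and length fits, 7 with library totals alone and 0 to 2 with 1 library left out. Their median was -0.16 with upper-quartile scaling, -0.23 and -0.24 in the GC and length fits, -0.31 with library totals alone and -0.15 to -0.069 with 1 library left out, and the log2 ratio of their summed CPM, -0.13 as reported, was -0.20 with upper-quartile scaling and -0.35 with library totals alone. Over the 13680 tested genes the median was -0.24 with library totals alone and -0.03 in the GC and length fits. Counts of lower members with library totals therefore include a shift shared by the tested genes. With the block 24.4% of all genes were called higher and 26.4% lower. For the other alternatives in this paragraph no such share is given, so their counts cannot be set against all genes. Why the GC and length fits differ was not tested. Ppp2ca was lower under each setting.

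Of 627 estimates for 37 named genes under these settings, 529 had the direction and side of the threshold reported, 61 no longer passed, 17 newly passed and 20 changed sign. mt-Co2 was at -0.018 with upper-quartile scaling, -0.10 and -0.11 in the GC and length fits, -0.17 with library totals alone, and -0.12 to 0.34 with 1 library left out. mt-Nd6 was at -0.18 to 0.060 with 1 library left out. With upper-quartile scaling Sdha was at -0.041, Sdhb at -0.019 and Sdhd at -0.0078. With library totals alone Sdha was at -0.19, Sdhb at -0.17, Sdhc at -0.12, Sdhd at -0.16, Uqcrh at -0.033, Atp5f1 at -0.020 and Pmpcb at -0.014. The coefficient of variation between replicates was 8.77%, and the median SE of a nuclear member's log2 fold change was 0.0777.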
